A study of Mus musculus with 13 samples.

Results

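The change from thymic to splenic regulatory T cells (Tregs) was followed in mice without c-Rel. The comparison sets 2 libraries of splenic Tregs, labelled tTreg, against 2 libraries of thymic de novo Tregs. All 4 came from cRel-/-Foxp3rfp mice of the C57BL6/J strain and were chosen by their labels alone, 4 of the 13 libraries of the study. The same 2 populations from cRel+/+Foxp3rfp mice of that strain, again 2 libraries each, served as the wild-type counterpart. The other 5 libraries hold pre-Tregs and were used only as an alternative fit. Per the labels, T cells were enriched magnetically for CD4, sorted by flow cytometry and used for RNA sequencing. The allele Foxp3rfp, named for a red fluorescent protein placed at Foxp3, was carried by both genotypes. The sources used here do not state ages, sexes, the number of animals per library, the markers of the sort or the way de novo Tregs were told from recirculating Tregs.

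Tregs are CD4 T cells that hold back immune responses and depend on the transcription factor Foxp3. Those that arise in the thymus pass through a precursor stage, gain Foxp3, leave through the blood and settle in lymphoid organs, where part of them turn into effector Tregs with tissue-homing receptors and suppressive molecules. c-Rel, encoded by Rel, is an NF-kB subunit downstream of the T cell receptor and CD28, known for its part in the formation of thymic Tregs. Mice without it still hold some Tregs.

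Levels are in CPM, counts scaled to a common library size, here with the TMM correction for the composition of each library. The knockout libraries held 25122095 and 26968168 counts (de novo) and 35114430 and 32291272 counts (splenic). A floor of 3 counts lay between 0.0849 and 0.121 CPM over the 8 Foxp3+ libraries. Stage coincides with tissue and with the deposited count table, so stage, tissue and any step that differed between the tables cannot be told apart. In bulk samples, fewer cells that express a gene and less RNA per cell cannot be told apart either. The labels do not say which libraries came from separate animals, so the p-values measure the spread between libraries, which may be technical. The 2 knockout splenic libraries differed more from each other than any other pair of replicates. Their counts gave a chi-square of 41.6 per degree of freedom, against 9.16 to 13.5 for the other 3 pairs, and markers of B cells, myeloid cells and red cells were higher in replicate 1 (values below).

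Rel itself was read in all 8 libraries. Knockout de novo libraries held 88.1 and 96.6 CPM and knockout splenic libraries 41.8 and 44.3, against 99.6 and 97.1 and then 45.1 and 53.9 in wild type. The sources used here do not state which part of Rel the knockout removes, so a count over the whole gene does not check the genotype. The count fell from thymus to spleen by 1.10 on the log2 scale in the knockout (SE 0.11, adjusted p = 4.46e-05 by edgeR) and by 0.99 in wild type.

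The transition was broad without c-Rel. Of 12532 genes tested, 3589 were called, which is 28.6% of them, where called means an adjusted p under 0.05 by edgeR's quasi-likelihood test with Benjamini-Hochberg adjustment over all genes. The 1896 rises (15.1%) and 1693 falls (13.5%) were of like number, and the median log2 change of all tested genes was 0.01. Of the rises, 747 were at least 2-fold (5.96% of all genes), 363 at least 4-fold and 185 at least 8-fold, and of the falls 487 (3.89%), 159 and 80. The libraries of the knockout groups did not overlap for 62.3% of all genes, so a lack of overlap in the genes named below is not rare in itself. Without knockout de novo replicate 1 the count was 2234 and without replicate 2 it was 2338. In wild type 2961 genes were called (23.6%), 1508 higher (12%) and 1453 lower (11.6%). The 2 genotypes share no library in these comparisons. Of the 3589 genes called in the knockout, 1141 rose and 1010 fell in both genotypes, 746 rose and 677 fell with no call in wild type, and 15 were called in opposite directions. A call in 1 genotype and none in the other is no test of a difference, which is given further on.

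The lists of genes below show what moved. The members of the effector Treg list, ribosomal proteins and mitochondrially encoded genes were mostly called higher in spleen, and those of the proliferation, immature thymocyte and interferon lists mostly lower, as the bars of called members show.

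**Figure D1:**
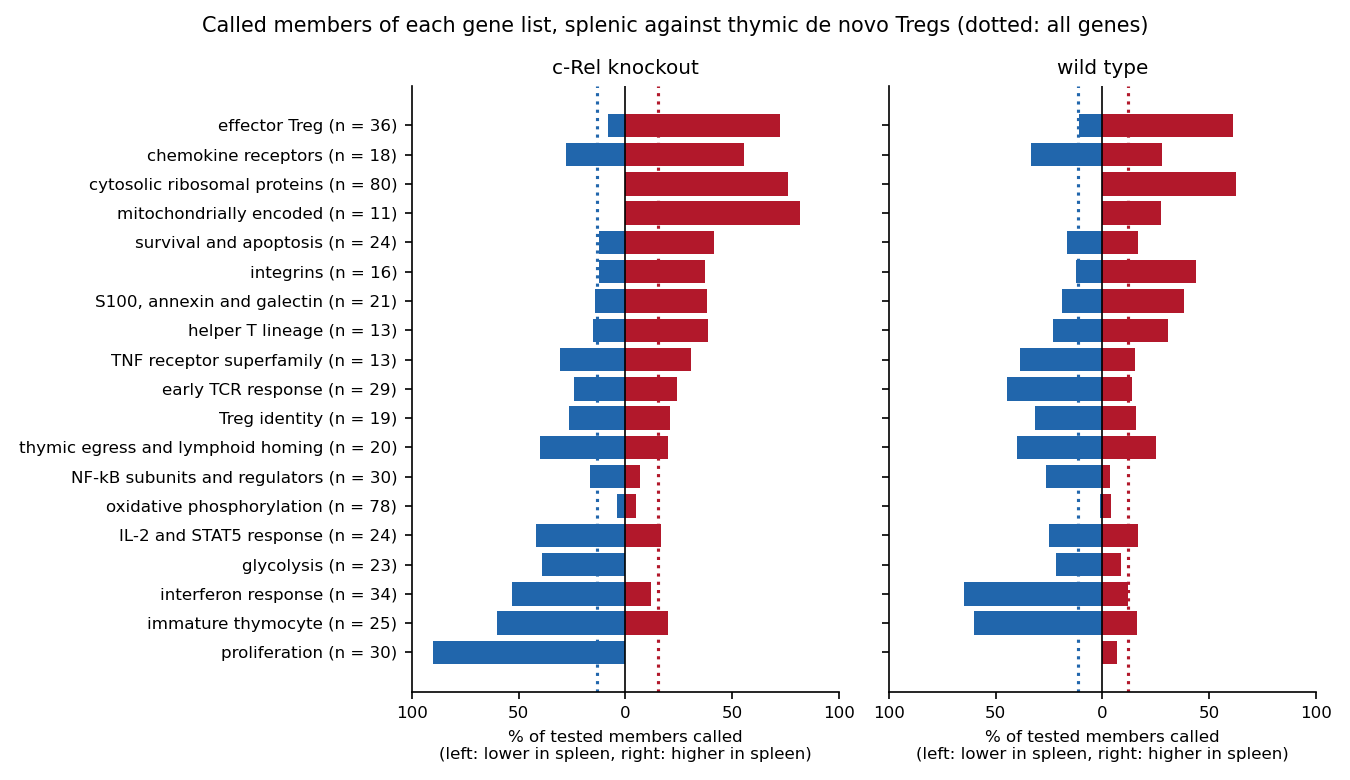
Share of the tested members of each gene list that were called higher (red, to the right) or lower (blue, to the left) in splenic than in thymic de novo Tregs, in percent, in c-Rel knockout (left panel) and wild type (right panel). Dotted lines give the share over all 12532 genes (knockout 15.1% higher and 13.5% lower); the proliferation list reached 27 of 30 lower in the knockout and 0 of 30 in wild type.

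Both populations held Foxp3 and Cd4 transcripts. The cells were enriched for CD4 and labelled as Tregs, so these levels are no independent check of their identity. Foxp3 stood at 716 and 829 CPM in the knockout de novo libraries and at 889 and 656 in the splenic ones, and the groups overlapped. Its log2 change of -0.000384 (SE 0.12, adjusted p = 0.999 by edgeR) had no stable sign. Cd4 held 626 and 678 and then 748 and 688 CPM, with a log2 change of 0.14 (SE 0.08, adjusted p = 0.202 by edgeR). The killer-cell coreceptor Cd8a was at 2.85 and 1.48 CPM in thymus and 0.679 and 0.0617 in spleen.

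Of the 19 tested members of the Treg identity list, 4 rose, 5 fell and 10 were not called, and their median change was near 0. The share called was 47.4%, against 28.6% of all genes. The rises were Ikzf2, Nt5e, Nrp1 and Itgae. Ikzf2, which encodes Helios, went from 163 and 198 CPM to 240 and 289 (log2 change 0.55, SE 0.12, adjusted p = 0.00524 by edgeR). Nrp1, a surface receptor typical of thymus-derived Tregs, went from 135 and 150 to 339 and 379 CPM, and Nt5e, the ecto-enzyme CD73, from 229 and 235 to 495 and 463 CPM. For each of these genes both splenic libraries lay above both thymic ones. Ikzf2 was not called without knockout de novo replicate 1 (log2 change 0.41, adjusted p = 0.0698 by edgeR).

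The falls within this list were Il2ra, Il2rb, Tnfrsf4, Tnfrsf18 and Gpr83. Il2ra, the high-affinity chain of the IL-2 receptor, went from 1254 and 1424 CPM to 985 and 637 (log2 change -0.72, SE 0.16, adjusted p = 0.00557 by edgeR). The costimulatory receptors Tnfrsf4 (OX40) and Tnfrsf18 (GITR) went from 2214 and 2015 to 880 and 926 CPM and from 1555 and 1451 to 661 and 809 CPM. Gpr83, an orphan receptor of Tregs, showed the steepest fall of the list, from 2436 and 2173 to 911 and 818 CPM (log2 change -1.41, SE 0.09, adjusted p = 2e-06 by edgeR). Ctla4, an inhibitory receptor, held 623 and 625 and then 539 and 521 CPM and missed the threshold (adjusted p = 0.0856 by edgeR). In the fit of all 13 libraries Ikzf2, Il2ra, Tnfrsf18, Klf2 and Bcl3 were among the genes not called.

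**Figure D2:**
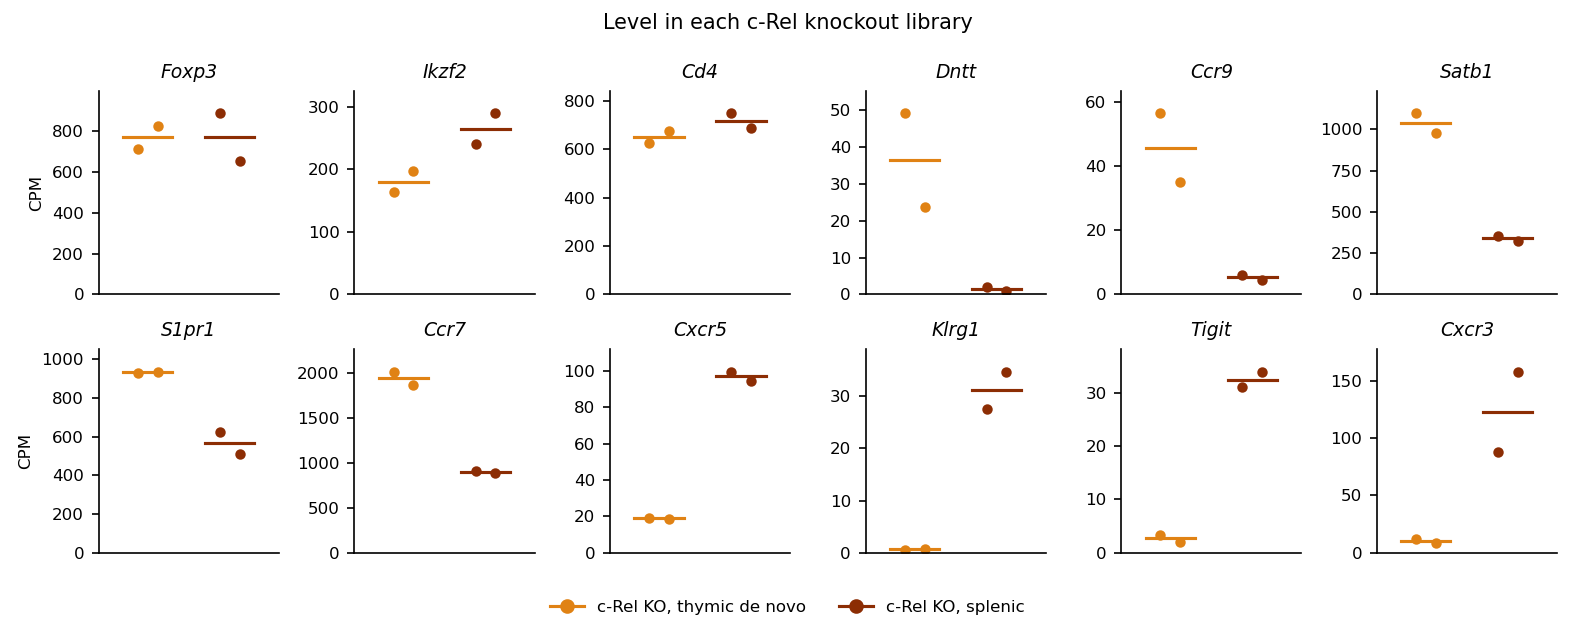
Level of 12 genes in CPM (linear axes from 0) in each of the 4 c-Rel knockout libraries, points for libraries and bars for group means. Foxp3 overlapped between the groups, Dntt, Ccr9, Satb1, S1pr1 and Ccr7 were lower in both splenic libraries, and Cxcr5, Klrg1, Tigit and Cxcr3 were higher in both.

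Most transcripts of the immature thymocyte list were lower in spleen. Of 25 members 15 fell, 5 rose and 5 were not called, against 13.5% of all genes that fell, with a median log2 change of -1.13. Dntt, the terminal transferase that adds bases to receptor gene joints, stood at 49.2 and 23.8 CPM in thymus and at 2.09 and 1.05 in spleen (log2 change -4.52, SE 0.38, adjusted p = 1.33e-05 by edgeR). Rag1 and Rag2, the recombinase of antigen receptor genes, and Ptcra, the pre-TCR alpha chain, had 0 counts in both splenic libraries. Against a floor of 3 counts per library they were at least 14.5-fold, 12.995-fold and 36.8-fold lower there, from de novo means of 1.29, 1.15 and 3.26 CPM. These recombination transcripts were thus scarce on the thymic side as well.

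The thymic homing receptor Ccr9 went from 56.4 and 35.1 CPM to 6.17 and 4.41 (log2 change -3.11, SE 0.25, adjusted p = 1.16e-05 by edgeR). The chromatin organizer Satb1 fell from 1097 and 975 to 354 and 325 CPM, the transcription factor Sox4 from 75.0 and 77.9 to 16.6 and 18.0 CPM, and the membrane protein gene Itm2a from 725 and 592 to 163 and 156 CPM. Myb, a factor of proliferating progenitors, went from 171 and 179 to 51.7 and 24.4 CPM, and Cd24a from 9.20 and 6.02 to 2.21 and 0.0925 CPM. In each case the thymic libraries were both above the splenic ones. The fall of Cd24a was not called with DESeq2 (adjusted p = 0.0891), and its splenic level was higher in replicate 1. Among the 5 members that rose were St6gal1, Bcl2l11, Ccr4 and Tox2. Tox2 rose from 2.17 and 1.93 to 18.0 and 18.5 CPM.

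Genes of thymic exit and of homing to lymph nodes were not uniformly higher in spleen. Of 20 members, 8 fell and 4 rose, a share of 60.0% against 28.6% of all genes. The egress receptor S1pr1 stood at 930 and 936 CPM in thymus and at 622 and 512 in spleen (log2 change -0.72, SE 0.09, adjusted p = 0.000208 by edgeR). Klf2, the factor that drives S1pr1, went from 809 and 830 to 505 and 589 CPM. Ccr7, the receptor for lymph node chemokines, showed the steepest fall of the list, from 2015 and 1866 to 912 and 891 CPM (log2 change -1.11, SE 0.07, adjusted p = 2.34e-06 by edgeR).

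The members that rose were Il6ra, Il7r, Itga4 and Cxcr5. Cxcr5, which brings lymphocytes to B cell follicles, went from 19.2 and 18.7 to 99.7 and 94.5 CPM (log2 change 2.36, SE 0.11, adjusted p = 6.05e-07 by edgeR). The IL-7 receptor gene Il7r went from 173 and 124 to 334 and 290 CPM. Cd69, which retains cells in the thymus by binding S1pr1, held 251 and 272 and then 239 and 265 CPM, and the groups overlapped (adjusted p = 0.815 by edgeR).

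Among the wider set of 18 chemokine and homing receptors, 10 rose and 5 fell, with a median log2 change of 1.52. The share called was 83.3%, against 28.6% of all genes. Cxcr3, a receptor of type 1 inflamed tissue, rose from 12.3 and 8.10 to 87.8 and 158 CPM (log2 change 3.60, SE 0.27, adjusted p = 6.77e-06 by edgeR). The falls were Ccr9, Cx3cr1, Ccr7, S1pr1 and Ccr8. Of 16 integrins 6 rose and 2 fell, against 15.1% and 13.5% of all genes. Itgb1 rose from 110 and 111 to 300 and 391 CPM and Itga4 from 38.9 and 39.7 to 100.2 and 101 CPM, 2 chains that pair into a receptor for VCAM-1 and fibronectin. Itgb2, the shared chain of the leukocyte integrins, fell from 1503 and 1466 to 1134 and 995 CPM.

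Most effector Treg genes of the list rose. Of 36 members 26 rose, 3 fell and 7 were not called, against 15.1% of all genes that rose, and the median log2 change was 1.68. The inhibitory lectin-like receptor Klrg1, a mark of terminally differentiated Tregs, went from 0.522 and 0.681 CPM to 27.6 and 34.8 (log2 change 5.68, SE 0.32, adjusted p = 1.5e-06 by edgeR). Maf, a factor behind IL-10 production, went from 2.09 and 1.21 to 33.4 and 42.8 CPM. The checkpoint receptor gene Tigit went from 3.38 and 1.97 to 31.0 and 34.0 CPM.

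Il10, the suppressive cytokine, was near the floor in thymus, at 0.0804 and 0.0757 CPM, and at 6.17 and 7.13 in spleen. Prdm1, which encodes Blimp-1, went from 4.78 and 4.96 to 26.4 and 19.2 CPM, and Il1rl1, the IL-33 receptor of tissue Tregs, from 2.93 and 4.20 to 27.3 and 28.6 CPM. Both splenic libraries were above both thymic ones for these genes. The exceptions that fell were Pdcd1, Gata3 and Ccr8. Gata3 went from 237 and 262 to 175 and 186 CPM. Of the calcium-binding S100 genes that accompany an activated state, S100a6 rose from 9.65 and 8.59 to 48.3 and 66.6 CPM and S100a4 from 1.57 and 0.492 to 14.5 and 13.7 CPM.

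Among 13 helper T lineage genes 5 rose and 2, Gata3 and Il21, fell, a share of 53.8% against 28.6% of all genes. The type 1 factor Tbx21 (T-bet) went from 3.13 and 3.48 to 19.1 and 23.8 CPM (log2 change 2.69, SE 0.20, adjusted p = 6.19e-06 by edgeR), and its target Ifng from 0.281 and 0.454 to 5.75 and 9.87 CPM. Runx3, a partner of T-bet, went from 11.5 and 14.1 to 35.3 and 34.7 CPM. For all of these the groups did not overlap.

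The genes with the largest changes, given at least 10 CPM in the higher group, were partly outside these lists. Noxa1, an activator of NADPH oxidases, went from 0.322 and 0.681 CPM to 32.7 and 29.8 (log2 change 5.94, SE 0.44, adjusted p = 6.19e-06 by edgeR), and Cybb, the catalytic subunit of the phagocyte NADPH oxidase, from 0.643 and 0.833 to 34.3 and 34.8 CPM (5.54, SE 0.24). The cysteine protease inhibitor Cst7 went from 7.44 and 6.51 to 123 and 131 CPM. The remaining genes of this group were Naip5, Naip6, Naip2, Angptl2, Igfbp7, Il9r and Serpina3f, with log2 changes of 3.88 to 4.79. Naip2, Naip5 and Naip6 are related members of one inflammasome receptor family. Their reads could be shared by the count, so their separate values are uncertain.

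The largest falls were those of Dntt and of Smo, the transducer of Hedgehog signals, which went from 26.2 and 20.4 CPM to 2.24 and 1.11 (log2 change -3.79, SE 0.28, adjusted p = 6.19e-06 by edgeR). Kit, the receptor of stem cell factor, went from 21.8 and 24.5 to 3.68 and 1.23 CPM, and the protease inhibitor Serpine2 from 26.5 and 29.2 to 2.77 and 1.88 CPM. Pyroxd2, Ltbp1, Adgrg3, Fibcd1, Lad1, Cybrd1, Ccr9 and Fbln1 made up the rest, with log2 changes of -2.90 to -3.68. Lad1 fell in both genotypes from different levels. It went from 27.1 and 32.2 to 4.25 and 1.54 CPM in the knockout and from 573 and 595 to 129 and 115 in wild type. Wnt3, a secreted signal, went from 1.37 and 2.16 to 0.651 and 0.956 CPM in the knockout (log2 change -1.14, SE 0.29, adjusted p = 0.0123 by edgeR). In wild type it went from 43.8 and 38.0 to 16.9 and 18.8. The knockout fall of Wnt3 was not called with limma-voom, all 13 libraries or the 4 knockout libraries alone.

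Genes of the signalling routes that feed c-Rel moved in both directions. Of 30 NF-kB subunits and regulators 5 fell, namely Rel, Bcl3, Birc3, Nfkb2 and Birc2, and 2 rose, namely Malt1 and Traf1, a share of 23.3% that is near the 28.6% of all genes. With library totals alone as the scaling the counts were 4 falls and 4 rises. Bcl3, a nuclear partner of the NF-kB p50 and p52 subunits, went from 198 and 216 to 119 and 117 CPM, and the paracaspase gene Malt1 from 35.3 and 43.0 to 88.8 and 77.2 CPM. Of 29 genes of the early T cell receptor response 7 fell and 7 rose, a share of 48.3% against 28.6% of all genes. Nr4a1 (Nur77), a reporter of receptor signals, went from 437 and 481 to 216 and 181 CPM, and Dusp5 from 207 and 228 to 88.6 and 87.5 CPM, while Irf4, which Tregs need for effector function, went from 16.2 and 19.6 to 59.5 and 50.5 CPM.

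In the IL-2 and STAT5 list 10 of 24 members fell and 4 rose, a share of 58.3% against 28.6% of all genes. Stat5a, the signal carrier of the IL-2 receptor, went from 377 and 417 to 191 and 165 CPM (log2 change -1.16, SE 0.09, adjusted p = 1.01e-05 by edgeR). The rises were Socs3, Gadd45b, Pim1 and Il7r. Of 24 genes of survival and apoptosis 10 rose and 3 fell, a share of 54.2% against 28.6% of all genes. Among the rises were both the protective Bcl2l1 (Bcl-xL), from 30.4 and 34.0 to 50.7 and 46.1 CPM, and the death-promoting Bcl2l11 (Bim), from 51.0 and 52.7 to 104 and 91.7 CPM. The falls were Birc5, Fas and Casp8, with Fas at 102 and 119 and then 58.7 in both splenic libraries. Bcl2 held 779 and 810 and then 602 and 717 CPM. It lay just outside the threshold (adjusted p = 0.0523 by edgeR) and inside it with DESeq2 and limma-voom.

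Type I interferon response genes were mostly lower in spleen. Of 34 members 18 fell and 4 rose, with a median log2 change of -0.57. The share called was 64.7%, against 28.6% of all genes. Ifi44 went from 9.003 and 9.92 to 1.27 and 0.987 CPM (log2 change -3.06, SE 0.27, adjusted p = 2.18e-05 by edgeR), and the oligoadenylate synthetase-like gene Oasl2 from 83.7 and 87.4 to 36.7 and 31.5 CPM. The rises were Gbp2, Gbp3, Ly6c1 and Ly6a. Ly6a (Sca-1) and Ly6c1, which also mark activated and memory T cells, went from 82.0 and 49.3 to 347 and 411 CPM and from 42.5 and 29.0 to 156 and 203 CPM. In wild type 22 members fell and 4 rose, and the difference between the genotypes was called for 0 members.

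Most genes of cytosolic ribosomal proteins rose. Of 80 of them 61 rose and 0 fell, against 15.1% and 13.5% of all genes, with a median log2 change of 0.64, and in wild type 50 rose and 0 fell. Rpsa went from 82.6 and 78.6 to 187 and 202 CPM (log2 change 1.27, SE 0.08, adjusted p = 3.2e-06 by edgeR) and Rps20 from 113 and 109 to 199 and 205 CPM. With the 13-library fit 24 rose. Of 24 genes of ribosome biogenesis 6 rose and 1, Nop56, fell, a share of 29.2% that is near the 28.6% of all genes, and the rises numbered 1 without knockout de novo replicate 1.

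Of 11 tested mitochondrially encoded genes 9 rose (81.8%, against 15.1% of all genes) and 0 fell, and their median log2 change was 1.05. mt-Nd5, a subunit of respiratory complex I, went from 185 and 183 to 347 and 354 CPM. The share of counts on mitochondrial genes was 0.294% and 0.298% in the knockout de novo libraries, 0.449% and 0.507% in the splenic ones and between 0.404% and 0.512% in the 4 wild-type libraries. The 78 nuclear genes of oxidative phosphorylation gave 4 rises and 3 falls, a share of 8.97% that is below the 28.6% of all genes. Without splenic replicate 1 they gave 12 and 4, and without splenic replicate 2 they gave 1 and 12. Of 23 glycolysis genes 9 fell (39.1%, against 13.5% of all genes) and 0 rose. The lactate exporter gene Slc16a3 went from 83.3 and 83.6 to 26.2 and 23.0 CPM and the enolase gene Eno1 from 649 and 624 to 341 and 370 CPM.

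Proliferation genes were lower in knockout splenic than in knockout thymic Tregs. Of 30 members 27 fell (90.0%, against 13.5% of all genes) and 0 rose, and the median log2 change was -1.19. Those not called were Mcm6, Pcna and Tk1. Mki67, the gene of the Ki-67 antigen of cycling cells, went from 64.2 and 74.1 CPM to 44.1 and 30.3 (log2 change -0.89, SE 0.16, adjusted p = 0.00189 by edgeR). The kinetochore gene Cenpf went from 32.7 and 33.9 to 11.9 and 8.33 CPM, and Kif23, a motor of cell division, from 28.9 and 30.9 to 10.8 and 9.16 CPM. Ccnb2, a mitotic cyclin, went from 43.9 and 44.8 to 23.4 and 16.2 CPM. In all 4 both splenic libraries were below both thymic ones, and replicate 2 was the lower of the splenic pair.

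The summed level of the 30 genes was 2503 and 2481 CPM in the knockout de novo libraries and 1684 and 1103 in the splenic ones. In wild type it was 2605 and 2089 in thymus and 2450 and 2668 in spleen, where 2 members were called, both higher: Tyms and Tk1. The difference of the changes between genotypes was called for 12 of the 30, all with the knockout change lower, against 0.503% of all genes in that direction. That count rests on few libraries. It was 0 without either knockout de novo library, without wild-type de novo replicate 2 or without wild-type splenic replicate 2, 1 without wild-type splenic replicate 1, 7 without wild-type de novo replicate 1, 15 without knockout splenic replicate 2 and 29 without knockout splenic replicate 1. The median difference stayed between -1.75 and -1.04 in these fits. For the fall in the knockout itself, these fits called 24 to 28 of the 30 members.

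**Figure D3:**
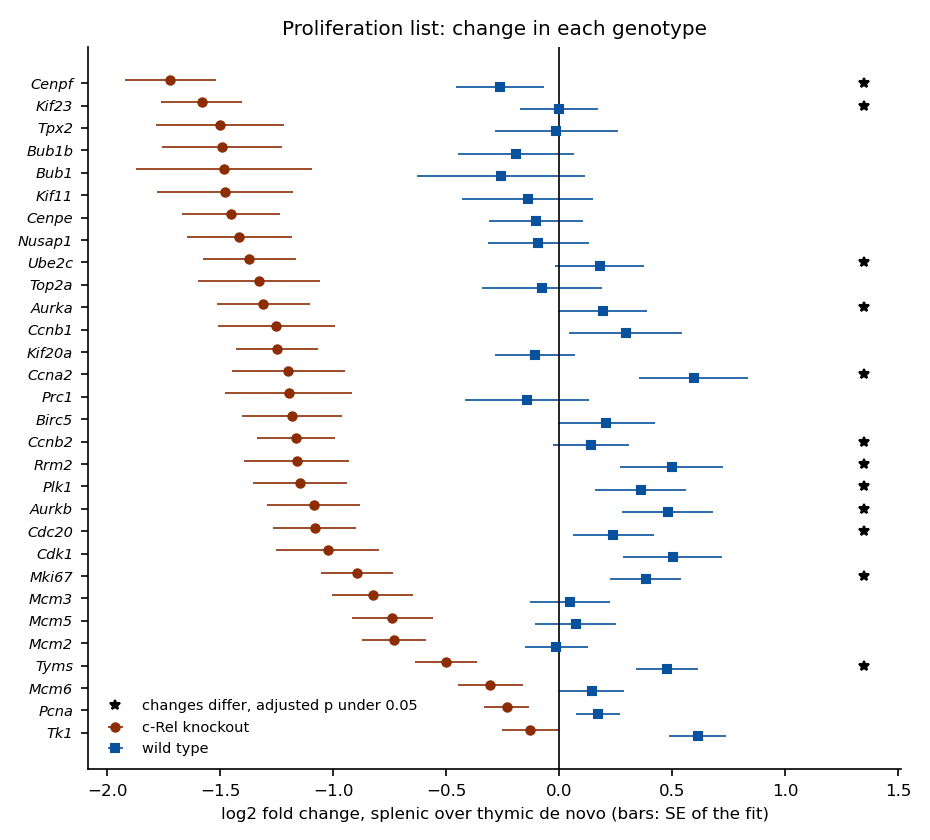
Log2 fold change of the 30 proliferation genes from thymic de novo to splenic Tregs, in c-Rel knockout (circles) and wild type (squares), with the SE of the fit as bars and a star where the 2 changes differed at an adjusted p under 0.05. All 30 knockout values lie below 0 and 27 were called, while the wild-type values lie on both sides of 0.

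Promoters of mitotic genes are known for CCAAT boxes, the sites of NF-Y, and for the element TTTGAA, part of the cell cycle homology region that represses them outside division. Start sites in the RefSeq promoter table (build GRCm38.p6) matched 26 of the 30 genes, and the 250 bases before each start were searched on both strands. CCAAT was found for 22 of them (84.6%), against 37.5% of 27025 genes. TTTGAA was found for 9 (34.6%), against 18.3% of genes. Both were found for the same 9 (34.6%), against 6.45% of genes. A match describes letters in the window and is no evidence of binding. The windows of Ccnb2 and Cenpf are shown as genes described above, and that of Cdk1, the mitotic kinase (log2 change -1.02), for its matches, which were seen before it was chosen. Each is written 5′ to 3′ on the gene's strand up to the base before the start, with both motifs, in either orientation, in capitals.
Ccnb2: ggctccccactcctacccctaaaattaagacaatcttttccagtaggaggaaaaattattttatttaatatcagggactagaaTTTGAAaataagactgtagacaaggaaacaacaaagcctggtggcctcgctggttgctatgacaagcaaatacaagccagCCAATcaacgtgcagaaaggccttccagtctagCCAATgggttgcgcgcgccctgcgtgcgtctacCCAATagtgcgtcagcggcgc
Cdk1: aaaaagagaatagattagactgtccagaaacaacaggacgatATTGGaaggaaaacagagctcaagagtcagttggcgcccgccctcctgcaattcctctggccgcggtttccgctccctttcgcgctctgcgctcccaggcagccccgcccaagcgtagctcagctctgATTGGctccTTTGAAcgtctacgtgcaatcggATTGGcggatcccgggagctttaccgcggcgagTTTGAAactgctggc
Cenpf: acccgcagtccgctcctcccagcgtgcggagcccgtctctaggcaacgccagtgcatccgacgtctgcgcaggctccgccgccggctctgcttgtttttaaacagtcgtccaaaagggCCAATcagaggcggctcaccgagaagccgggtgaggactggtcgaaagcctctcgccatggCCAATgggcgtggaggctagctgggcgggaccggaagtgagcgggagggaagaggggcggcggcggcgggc
The windows are chr9:70421555-70421804 (minus strand), chr10:69352913-69353162 (minus strand) and chr1:189688087-189688336 (minus strand). In Ccnb2 the CCAAT boxes begin 87, 54 and 21 bases before the start, and in Cdk1 they begin 80 and 48 bases before it, with a further one at 208. TTTGAA begins 71 and 15 bases before the start in Cdk1. In Ccnb2 it begins 167 bases before the start, farther away than the CCAAT boxes. The Cenpf window holds CCAAT at 132 and 71 bases and no TTTGAA.

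Whether the change from thymus to spleen differed between genotypes was tested directly. The difference was called for 134 of 12532 genes (1.07%), of which 71 (0.567%) had the knockout change above and 63 (0.503%) below the wild-type change. Of the 134, 15 were called in every fit that left out 1 of the 8 libraries, and counts in those fits ran from 21 (without wild-type splenic replicate 2) to 462 (without knockout splenic replicate 1). These 15 were Cd83, Nkg7, Itgae, Fam129a, Fgl2, Il1r2, Axl, Ttc39c, Arrdc4, Gpm6b, Bcl2l1, Ahnak, Igfbp4, Ecm1 and Kif22. Every other gene named below for a difference lost its call without at least 1 library. In the fit of all 13 libraries the difference was called for 1 gene, Itgae, so no other of these 15 kept its call there. In that fit Cd83 had a difference of 1.42 (SE 0.31, adjusted p = 0.162 by edgeR). Il1r2 had 1.66 (SE 0.66, adjusted p = 0.834 by edgeR). The 71 comprised 22 genes called in the knockout alone, 7 called in wild type alone, 9 that rose in the knockout and fell in wild type, and 33 called in both in the same direction. For the 63 these numbers were 41, 8, 5 and 9. The 5 that fell in the knockout and rose in wild type were Asf1b, Ckap2, Mpo, Tubb4b and Tyms, named after their values were seen. Of these, Mpo rests on few reads, with 9 and 14 counts in the knockout de novo libraries (mean 0.446 CPM) and 0 in both knockout splenic ones.

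**Figure D4:**
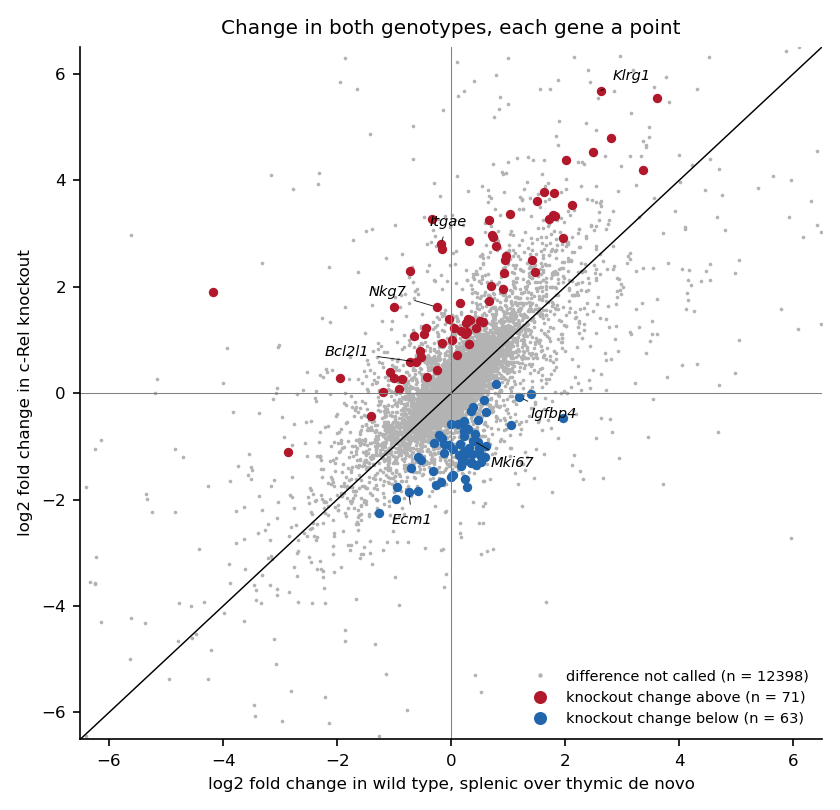
Log2 fold change from thymic de novo to splenic Tregs in wild type (horizontal) and in c-Rel knockout (vertical), each point a gene, with the line of equal change. The 71 genes with the knockout change above (red) and the 63 with it below (blue) lie on either side of the line; 94 genes lie outside the axis limits of 6.5.

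For Itgae and Fgl2, both of the effector Treg list, the knockout thymic libraries were the lowest of the 8. Itgae, the CD103 integrin chain that binds E-cadherin, went from 25.8 and 16.6 CPM to 168 and 126 in the knockout. In wild type it held 92.0 and 99.6 and then 94.9 and 74.0 CPM. The knockout change exceeded the wild-type change by 2.97 on the log2 scale (SE 0.28, adjusted p = 0.00118 by edgeR), and both knockout splenic libraries lay above both wild-type splenic ones. Fgl2, a secreted suppressor molecule, went from 3.13 and 3.86 to 25.2 and 25.8 CPM, against 17.7 and 21.3 and then 21.5 and 27.0 in wild type (difference 2.55, SE 0.24).

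A second pattern kept the knockout below wild type at both stages. Cd83, an activation antigen induced by NF-kB, went from 88.9 and 97.2 CPM to 242 and 247 in the knockout and held 356 and 350 and then 341 and 348 in wild type (difference 1.43, SE 0.11, adjusted p = 0.000451 by edgeR). Nkg7, a gene of cytotoxic granules, went from 23.3 and 21.5 to 63.8 and 73.5 CPM, against 167 and 164 and then 138 and 141 in wild type (difference 1.86, SE 0.14). Il1r2, the IL-1 decoy receptor, went from 8.80 and 8.37 to 21.4 and 18.8 CPM, against 80.2 and 68.3 and then 54.0 and 55.2. In these 3 genes every knockout library was below every wild-type library.

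Bcl2l1 moved in opposite directions. It rose from 30.4 and 34.0 to 50.7 and 46.1 CPM in the knockout (log2 change 0.59, SE 0.11) and fell from 125 and 122 to 76.1 and 85.5 in wild type (-0.61). The difference was 1.20 (SE 0.15, adjusted p = 0.0058 by edgeR), and the knockout stayed below wild type at both stages. Tnfsf8, the CD30 ligand, also rose in the knockout and fell in wild type, with 48.8 and 53.5 and then 89.5 and 74.1 CPM in the knockout and 96.9 and 100.1 and then 69.6 and 66.6 in wild type. The chemokine receptor gene Cxcr4 went from 15.9 and 16.7 to 30.8 and 31.9 CPM in the knockout and held 28.5 and 22.9 and then 23.6 and 22.1 in wild type.

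Because c-Rel binds kB sites, the windows before the start sites of the 12 named genes on each side were searched on both strands for the kB motif, read as GGG, any 3 bases and then TTCC. A window was matched for 9 of the 12 genes above and 11 of the 12 below. It was found for 1 of the 9, Bcl2l1, at 1 of its 3 start sites, and for 0 of the 11, against 5.31% of all genes. The match is written in capitals, on the opposite strand, in the window of Bcl2l1 at chr2:152830718-152830967 (minus strand). No match says only that these letters are not in these windows.
Bcl2l1: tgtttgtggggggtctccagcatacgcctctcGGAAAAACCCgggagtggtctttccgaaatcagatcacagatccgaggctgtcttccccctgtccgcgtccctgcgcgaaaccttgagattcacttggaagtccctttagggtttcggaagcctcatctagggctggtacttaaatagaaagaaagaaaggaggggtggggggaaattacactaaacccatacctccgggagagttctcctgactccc

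The other named genes with the knockout change above were Fam129a, Axl, Ttc39c, Arrdc4, Gpm6b and Fam46c. All 6 rose in the knockout, by 1.69 to 3.76 on the log2 scale. Axl, a receptor for apoptotic cells, went from 18.9 and 18.7 to 111 and 101 CPM, against 30.6 and 31.8 and then 65.8 and 54.3 in wild type. Klrg1 rose in both genotypes, in wild type from 5.23 and 9.42 to 45.3 and 45.0 CPM, and its knockout change was larger by 3.06 (SE 0.41, adjusted p = 0.0083 by edgeR). Of the 36 effector Treg genes the difference was called for 8, all with the knockout change above, against 0.567% of all genes in that direction, and refits with 1 library left out called between 3 and 14 of the 36.

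**Figure D5:**
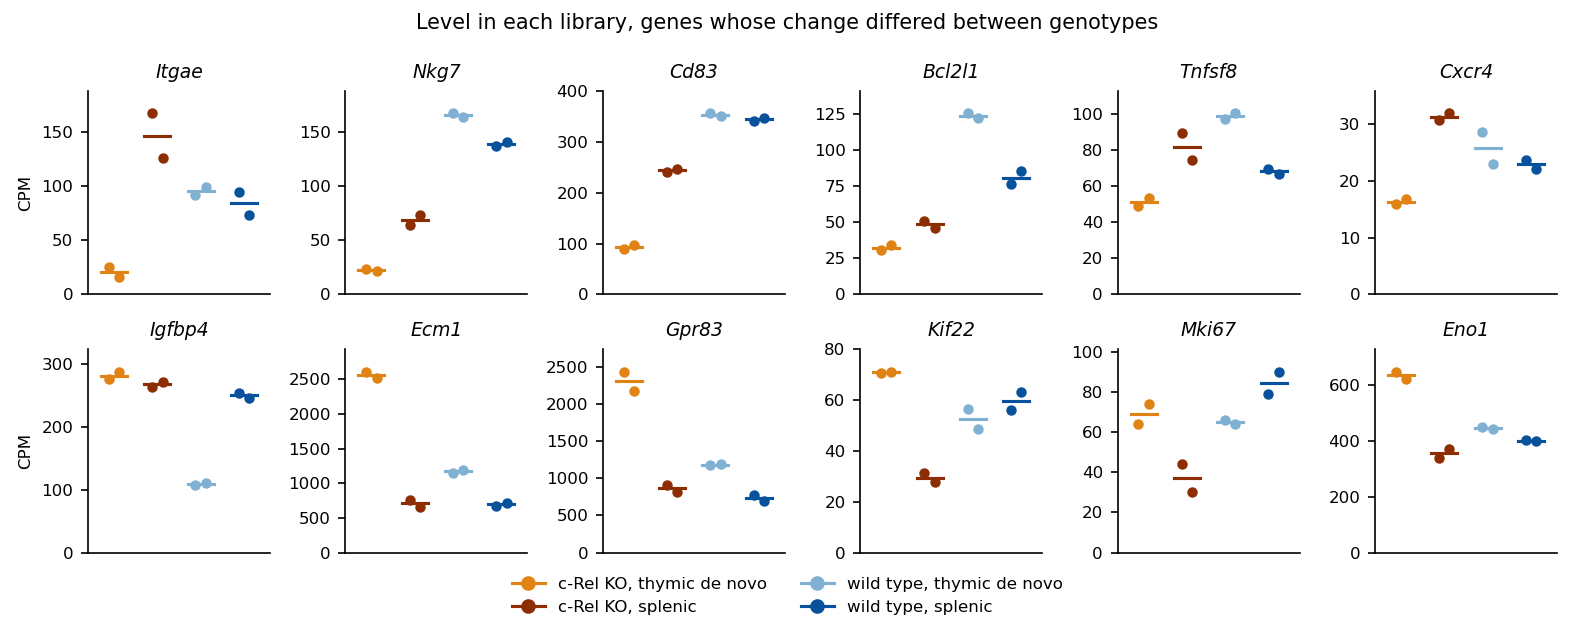
Level in CPM (linear axes from 0) of 12 genes whose change differed between genotypes, points for the 8 libraries and bars for group means. The top row shows genes with the knockout change above and the bottom row genes with it below; Itgae, for example, has its lowest points in the knockout de novo libraries, and Mki67 in the knockout splenic libraries.

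On the other side, some genes stood high in knockout thymic Tregs and lay closer to the wild-type level in spleen. The genotypes were not tested against each other within spleen. Ecm1, a secreted matrix protein, fell from 2609 and 2512 CPM to 756 and 661 in the knockout and from 1146 and 1191 to 674 and 721 in wild type (difference -1.11, SE 0.11, adjusted p = 0.00167 by edgeR). Gpr83 stood at 1183 and 1187 and then 769 and 691 CPM in wild type. These values lay below its knockout values in thymus and, by less, in spleen (difference of the changes -0.71, SE 0.12). Igfbp4, a binding protein of insulin-like growth factors, held 276 and 288 and then 263 and 272 CPM in the knockout and rose from 108 and 111 to 254 and 246 in wild type (difference -1.27, SE 0.11).

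Genes of cell division and of glycolysis were among those with the knockout change below. Kif22, a chromosome motor, went from 70.6 and 71.3 CPM to 31.2 and 27.8 in the knockout and held 56.6 and 48.5 and then 56.0 and 63.3 in wild type (difference -1.45, SE 0.16, adjusted p = 0.00357 by edgeR). Cdca3, Asf1b, Pbk and Kif23 had differences of -1.39 to -2.05, with the lowest levels of the 4 groups in knockout spleen. Of the 23 glycolysis genes the difference was called for 3, Tpi1, Eno1 and Slc16a3, against 0.503% of all genes in that direction. Tpi1 and Eno1, both glycolytic enzymes, stood at 201 and 196 and then 127 and 116 CPM and at 649 and 624 and then 341 and 370 CPM in the knockout. In wild type Tpi1 held 169 and 149 and then 184 and 189 CPM and Eno1 451 and 444 and then 404 and 399. Elovl6, Drc1 and Pdlim4 were the remaining named genes on this side.

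Ccr9 fell further in the knockout in value, with 58.2 and 55.3 and then 21.7 and 15.5 CPM in wild type, but the difference missed the threshold (-1.50, SE 0.33, adjusted p = 0.0718 by edgeR). It was called with DESeq2 (adjusted p = 0.000228), with no low-count filter, with the replicate number as a block (adjusted p = 0.0241 by edgeR) and without knockout splenic replicate 1 (-1.76, adjusted p = 0.0186 by edgeR). The differences of Lad1 (-1.08, adjusted p = 0.269 by edgeR) and Cd69 (0.76, adjusted p = 0.176 by edgeR) missed the threshold too. That of Lad1 was -2.003 without knockout splenic replicate 1 (adjusted p = 0.000456 by edgeR) and -0.55 without replicate 2 (adjusted p = 0.205 by edgeR), and with no low-count filter it was called (-1.09). That of Cd69 was called with DESeq2 (adjusted p = 0.0144) and with no low-count filter (adjusted p = 0.00808 by edgeR).

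Markers of other cells were not even across libraries, and their lists differed in level. The 22 tested myeloid and dendritic markers summed to 996 and 919 CPM in knockout thymus and to 1106 and 938 in knockout spleen. Of them 1 was called higher and 1 lower, 9.09% against 28.6% of all genes. Tested thymic stroma markers summed to 314 and 315 and then 302 and 273 CPM. Those of splenic stroma and vessels summed to 296 and 298 and then 264 and 229 CPM. The 13 tested B and plasma cell markers summed to 47.6 and 41.6 CPM in the knockout de novo libraries and to 137 and 82.2 in the splenic ones. Called higher were 3, Fcmr, Cd22 and Cd79b, a share of 23.1% against 15.1% of all genes. Ms4a1, which encodes the B cell antigen CD20, stood at 0.522 and 0.114 and then 5.21 and 0.0308 CPM, with most of its reads in splenic replicate 1. H2-Ab1 stood at 41.3 and 2.65 CPM and Lyz2 at 17.0 and 1.296 in the splenic pair. The 7 tested red cell and platelet markers summed to 4.78 and 4.35 CPM in thymus and to 25.5 and 7.06 in spleen. The 4 tested Y-linked genes, Ddx3y, Eif2s3y, Kdm5d and Uty, summed to 123 and 126 and then 64.1 and 128 CPM, and splenic replicate 1 was the lowest of these 4 libraries. In wild type they summed to 213 and 79.5 CPM in thymus and to 118 and 124 in spleen. These sums were thus uneven within the knockout splenic and the wild-type de novo pair, and a part of sex in the results was not tested. More B cell and myeloid markers were called higher without splenic replicate 2 than without splenic replicate 1. Each of these fits leaves 1 library in the knockout splenic group.

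Without splenic replicate 1 some of the results above held and others moved, in a fit that leaves 1 library in the knockout splenic group. The knockout log2 change of Wnt3 went from -1.14 to -0.89 and the difference of Lad1 from -1.08 to -2.003. Calls for the difference and for oxidative phosphorylation moved too, as given above. With splenic replicate 1 left out, 4196 genes were called, the effector Treg list had 25 rises and 3 falls, the proliferation list 28 falls and the immature thymocyte list 15. Over all 8 libraries, 3 of the 14 CD8 T and NK cell markers rose and 3 fell, 42.9% against 28.6% of all genes. Nkg7 and Ccl5 were among the rises, and the falls were Ctsw, Cd8a and Cd8b1. Cd8a was not called with the 4 knockout libraries alone (adjusted p = 0.0508 by edgeR). Its log2 change went from -2.51 to -1.97 without knockout de novo replicate 1. The heat shock genes Hspa1a, Hspa1b, Hspb1 and Hspe1 were called higher in spleen, 4 of 11 (36.4%, against 15.1% of all genes). Hspa1a held 1.77 and 1.59 and then 10.02 and 6.35 CPM in the knockout and 2.82 and 2.99 and then 1.16 and 2.35 in wild type, and its part in the other results was not tested.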

How the data were processed

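The authors deposited raw counts of reads per gene, one table per stage, with no normalization in the values per the file headers. The tables of de novo and splenic Tregs each list 22048 protein-coding genes and were joined by gene identifier. All deposited per-sample columns of the series were mapped and 0 were left unused. Among the tools in the submitters' processing notes are Subread 1.5.2 with featureCounts, STAR 2.5.2 and, with no role given, limma, Picard 2.9.0 and the quality tools MultiQC and FastQC; the build is GRCm38. The sources used here do not state the annotation release or the use of strand in counting, so overlapping genes cannot be separated.

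Counts were analysed in R 4.3.3 with edgeR 4.0.16: filterByExpr (min.count 10, min.total.count 15), TMM and the quasi-likelihood F-test, as 4 group means over the 8 Foxp3+ libraries (4 residual degrees of freedom, common biological coefficient of variation 0.114). Adjusted p is Benjamini-Hochberg over 12532 genes and a call is an adjusted p under 0.05. CPM are TMM-scaled. The splenic minus de novo change was estimated in each genotype, with the difference of the changes as an interaction. The script was tested on simulated data. Alternatives were RLE scaling, library totals, no filter, DESeq2 1.42.0, limma-voom (limma 3.58.1), a replicate block, all 13 libraries, the 4 libraries of a genotype alone, and leaving out each library. Splenic library totals were 32291272 to 35114430 counts and de novo totals 25122095 to 28235996, and intervals or floors drawn from counts cover counting error only.

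The comparison and the gene lists were chosen with earlier results of these data known. Named genes are a fixed set, up to 12 called genes per direction by size (at least 10 CPM, no overlap between libraries), up to 12 per direction for the difference by adjusted p (at least 5 CPM), and up to 4 called members per list. Nrp1, Izumo1r, Il10, Il1rl1, Prdm1, Cxcr4, Ccr6, Tnfsf8, Myb, Nr4a1, Cd24a, Rag2, Ptcra, Cdk1, the B cell, myeloid and CD8 genes given beside their lists, and members that complete a count of 5 or fewer were named after their values were seen. List alternatives were added after seeing the data. No test was run on a list as a set.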

Additional observations from a re-analysis of the deposited data

Results flagged for a closer look

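For 49 of the named genes the change from thymic de novo to splenic Tregs differed between c-Rel knockout and wild type, by the interaction term of edgeR at an adjusted p under 0.05. They are given as the log2 change in the knockout minus that in wild type, with 2 libraries per group. They were drawn from the same fit as the counts above, and calls by this term depend on single libraries, as the next part shows.

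Of the 36 members of the effector Treg list 8 are among these genes. The differences were 3.06 for Klrg1, 2.10 for Tigit, 2.05 for Maf, 2.25 for Il1rl1, 2.16 for S100a4, 2.97 for Itgae, 2.55 for Fgl2 and 1.12 for Ccr6. Nkg7 and Ccl5, members of the list of CD8 T and NK cell markers, had 1.86 and 2.21. Cd83 had 1.43 and Il1r2 had 1.67. Receptors and their ligands followed with 1.21 for Tnfsf8, 1.52 for Tnfrsf8, 2.38 for Il9r, 1.11 for Cxcr4, 0.78 for Nrp1 and 1.55 for Axl. The remaining genes on this side had differences of 1.20 for Bcl2l1, 0.823 for Cst7, 1.94 for Cybb, 1.98 for Naip5, 1.53 for Fam129a, 2.60 for Ttc39c, 1.61 for Arrdc4, 1.95 for Gpm6b, 1.06 for Fam46c, 3.01 for Hspa1a, 0.618 for mt-Nd1 and 0.614 for mt-Nd5. Ccr6, a chemokine receptor, had a called difference although its knockout groups overlapped, with 66.8 and 67.4 and then 93.3 and 66.8 CPM, since it fell in wild type from 161 and 182 to 96.3 and 92.1 CPM.

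Among genes of cell division the differences were -1.28 for Mki67, -1.45 for Kif22, -1.58 for Kif23, -1.42 for Cdca3, -1.39 for Asf1b, -2.05 for Pbk, -1.46 for Cenpf and -1.30 for Ccnb2. Those called of the 23 glycolysis genes had -0.937 for Tpi1, -0.683 for Eno1 and -0.811 for Slc16a3. The other genes on this side had -1.27 for Igfbp4, -1.11 for Ecm1, -1.15 for Elovl6, -0.981 for Drc1, -2.44 for Pdlim4, -0.715 for Gpr83, -0.587 for Xbp1 and -0.62 for Izumo1r. Izumo1r, the folate receptor of Tregs, held 1132 and 1108 and then 1158 and 1354 CPM in the knockout and rose from 560 and 624 to 1024 and 1015 in wild type.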

How the results depend on the processing

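Counts of called genes in the knockout, in wild type and for the difference (3589, 2961 and 134) stayed within 1.5 times under RLE scaling, library totals, limma-voom, the 4 libraries of each genotype alone (2717 and 4043, no difference term) and the replicate block (3444, 2729 and 122). The labels do not say whether equal replicate numbers mark a pair. Deviations of same-numbered libraries correlated between -0.108 and 0.174, which cannot settle it, so the block says nothing of pairing. No filter gave 381 and DESeq2 310 calls for the difference. All 13 libraries gave 1681, 973 and 1. There 31 of the named genes called in the knockout lost their call, and 48 named genes lost the call of their difference. Leaving out 1 library gave 2234 to 4196 calls in the knockout, 1350 to 3951 in wild type and 21 to 462 for the difference, of which 32.0% to 87.0% had the knockout change above. The lone library of a group is then assumed to vary like the others. In those 8 fits 1777 of the 3589 knockout calls and 15 of the 134 differences were called throughout. Library totals moved the share of rises among knockout calls from 52.8% to 57.0%. Signs turned for the log2 changes of genes that were not called: Foxp3 stood at 0.0298 with library totals and at -0.237 to 0.199 with 1 library left out, Cd69 at -0.135 to 0.0156 and Ccr6 at -0.00637 to 0.473 likewise. Genes at a few counts are limited by depth, since 3 counts equal 0.0849 to 0.121 CPM.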
